A study of Mus musculus with 4 samples.

Results

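The genes described here store and release neutral fat. They are 4 perilipin genes of the lipid droplet coat (Plin2, Plin3, Plin4 and Plin5), the triglyceride synthases Dgat1 and Dgat2, and the lipolysis genes Pnpla2, Lipe, Mgll and Abhd5. They are 10 of the 23473 rows with a gene name in the deposited count table, matched by symbol. The genes were chosen by function with the counts of these same 4 libraries, control against TLX, already known, so each difference given for its genes is a description of these libraries and not a test. Total RNA was sequenced from MIN6 cells, a mouse insulinoma line that serves as a model of the pancreatic beta cell. The 2 control libraries are labelled wild type, and the other 2 come from cells that stably overexpress TLX, the orphan nuclear receptor encoded by Nr2e1. Both groups were grown in DMEM with 25 mM glucose and 15% fetal calf serum. The sources used here do not give how TLX was introduced, from which promoter, or whether each line is a clone or a pool. The labels do not say that the libraries of a group came from separate cultures, so the spread between them may be technical.

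Cells keep surplus fatty acids as triglyceride in lipid droplets. Acyl groups are added to glycerol step by step, DGAT enzymes add the last one, and the product is wrapped in a phospholipid monolayer coated by perilipins. Fat is released in order by the lipase ATGL (Pnpla2) with its coactivator CGI-58 (Abhd5), by hormone-sensitive lipase (Lipe) and by monoglyceride lipase (Mgll). In beta cells lipid droplets buffer fatty acids, and lipolysis products are known to take part in insulin secretion.

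Gene rows held 8136185 to 9788646 counts a library, and 11024 rows had enough counts for the fit. The row of ribosomal RNA, Rn45s, took 12.2% to 16.7% of them. Nr2e1 was counted 8 and 10 times in control and 338 and 281 times with TLX, so the libraries match their labels. Beta cell markers did not match the labelled cell type in either group: 11 of 15 had 0 counts in every library, and Ins1, at 78 and 86 counts in control and 98 and 70 with TLX, was the only one that averaged at least 5 CPM (counts per 1000000 counts). Of 10 adipocyte markers, which often accompany perilipin genes, Lep had 0 counts throughout, Adipoq 0 to 2 and Pparg 0 to 1 a library. Fabp4, the only one that averaged at least 5 CPM, had 6.71 and 4.13 CPM in control and 4.74 and 6.31 CPM with TLX. It was not called. The 10 markers, with Fabp4 as the largest part, summed to 8.62 and 5.24 CPM in control and 5.55 and 6.94 CPM with TLX. The 10 macrophage markers summed to 120 and 122 CPM in control and 103 and 105 CPM with TLX. Nearly all of that came from Cd14, Lyz2 and Cd68, the 3 with enough counts to be tested, of which Cd68 fell by 0.53 on the log2 scale (edgeR quasi-likelihood test, fitted over all genes) and the other 2 were not called. Emr1 and Mrc1 were at 0 and Ptprc at 0 to 1 counts a library. The 13 fibroblast markers summed to 7992 and 7584 CPM in control and 8604 and 8267 CPM with TLX. Of the 8 that were tested Col1a2 (0.28 on the log2 scale, near the threshold at an edgeR adjusted p of 0.0434) and Sparc (0.87) rose, Fn1 and Pdgfrb fell (-0.76 and -0.73) and 4 were not called, while Lum was at 0. The part of macrophage and fibroblast markers in the results was not tested. In bulk RNA, fewer cells of a type and less RNA per cell cannot be told apart.

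Promoter sequences are shown for 3 perilipin genes because their transcripts took different courses: Plin2 was lower with TLX, Plin3 hardly differed and Plin4 was higher. Each is the 250 bases before the start of the gene on its own strand, 5′ to 3′, from RefSeq on GRCm38.p6. The windows are chr4:86670060-86670309 for Plin2, chr17:56290512-56290761 for Plin3 and chr17:56109783-56110032 for Plin4, all 3 on the minus strand. Capitals mark matches on either strand to the TLX half-site AAGTCA, the nuclear receptor half-site AGGTCA, the E-box CACGTG and the GC box GGGCGG.
Plin2: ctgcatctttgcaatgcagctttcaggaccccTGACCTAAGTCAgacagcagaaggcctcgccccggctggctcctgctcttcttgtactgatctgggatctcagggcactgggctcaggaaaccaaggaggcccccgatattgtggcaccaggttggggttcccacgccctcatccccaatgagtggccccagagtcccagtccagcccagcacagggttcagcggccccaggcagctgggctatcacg
Plin3: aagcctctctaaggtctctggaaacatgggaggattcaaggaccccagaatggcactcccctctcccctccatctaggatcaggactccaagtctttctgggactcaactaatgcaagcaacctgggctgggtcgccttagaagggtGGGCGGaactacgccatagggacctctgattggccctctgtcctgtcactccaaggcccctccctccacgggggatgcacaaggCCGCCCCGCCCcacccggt
Plin4: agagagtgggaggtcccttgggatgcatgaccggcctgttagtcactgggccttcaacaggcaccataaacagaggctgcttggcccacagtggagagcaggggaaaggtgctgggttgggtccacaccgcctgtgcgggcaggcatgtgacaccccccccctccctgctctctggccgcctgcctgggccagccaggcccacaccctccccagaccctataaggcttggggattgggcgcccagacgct

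The Plin2 window holds AAGTCA at bases -212 to -207 before the start. It directly follows AGGTCA on the opposite strand at -218 to -213. Of the 8 genes matched in the promoter table, which has no entry for Dgat1 or Dgat2, only Plin2 has AAGTCA in a window, where 13.1% of all 32851 windows of this length hold it. AGGTCA is in a window of 3 of the 8 genes, Plin2, Abhd5 and Plin5, and in 4607 of all windows. GC boxes are in a window of 6 of the 8 genes and in 32.7% of all windows, and CACGTG in a window of 2, Lipe and Mgll, and in 6.02% of all. Some genes have more than 1 window, so counts of genes and shares of windows are unlike measures. Of the 11 windows of the 8 genes, 1 holds AAGTCA, 3 AGGTCA, 7 a GC box and 2 CACGTG. A direct repeat of AGGTCA spaced by 1 base, the element that PPAR and RXR bind as a pair, is in none of the 8 genes and in 11 of all windows. The Plin3 window has 3 GC boxes, 2 of which overlap each other, and the Plin4 window holds no match to any of these motifs. A match is only a match of letters, and these libraries do not measure binding.

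Of the 10 genes, 8 had enough counts for the fit over all genes, in which edgeR's quasi-likelihood test was adjusted by Benjamini-Hochberg and a gene was called at an adjusted p under 0.05. Lower calls numbered 2 (Dgat2 and Plin2), 1 was higher (Plin4) and 5 were not called. Among all tested genes 16.8% were called, 9.04% lower and 7.79% higher, and since the set was chosen with this contrast known nothing is read from its share. The median log2 fold change was -0.06 over the 8 genes and 0.00057 over all tested genes. In 4 of the 8 genes the groups did not overlap in CPM, as in 57.1% of all tested genes.

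**Figure D1:**
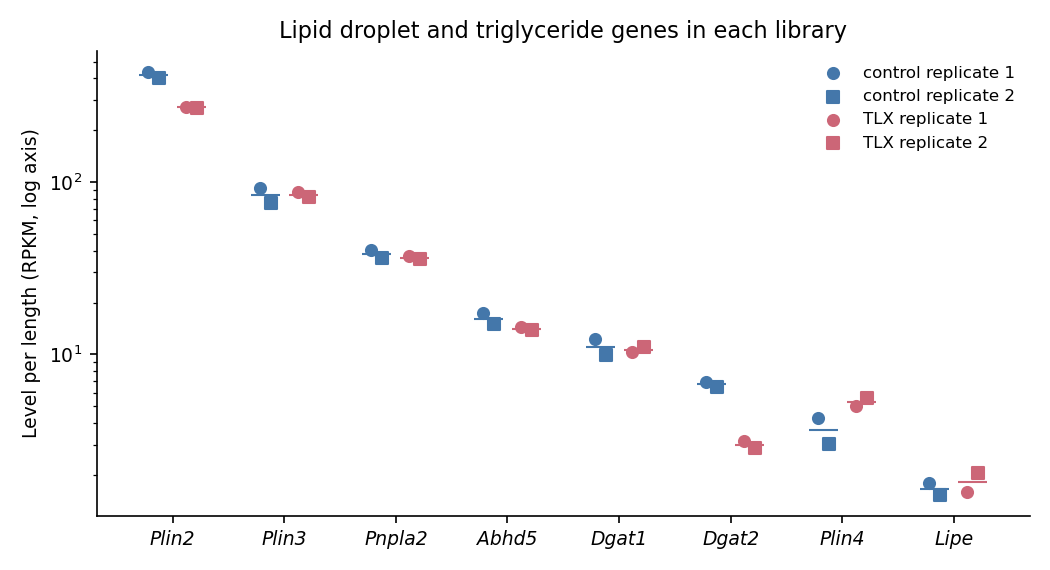
Level of the 8 tested genes in each library, in CPM per kilobase of feature length (RPKM, log axis). Blue marks control and red TLX, circles are replicate 1, squares replicate 2 and short lines the group means. Plin2, Dgat2 and Abhd5 lie lower and Plin4 higher with TLX, without overlap, and of these Abhd5 was not called. Plin5 and Mgll are left out because most of their libraries are at 0.

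Per length, Plin2 was the most abundant of the 10 transcripts in both groups, followed by Plin3, Pnpla2, Abhd5 and Dgat1, as the plot of levels by library shows. Levels between genes are given in RPKM, computed with the length in the table. In control Plin2 stood at 420 ± 23 RPKM (SD, n = 2), 4.98 times Plin3 at 84 ± 12 RPKM. Over the 4 libraries Plin2 ranked at percentile 98.2 of the tested genes, Plin3 at 92.4 and Pnpla2 at 81.8, while Lipe ranked at 12.4. Next in control came Dgat2 (6.70 ± 0.30 RPKM), Plin4 (3.66 ± 0.89 RPKM) and Lipe (1.67 ± 0.18 RPKM). With TLX Plin4 (5.32 ± 0.42 RPKM) stood above Dgat2 (2.996 ± 0.195 RPKM). Neighbours in either order did not overlap between libraries, except for Plin5 and Mgll at the bottom.

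Among the coat proteins, Plin2 (adipophilin), which coats droplets in most cell types and is degraded when not bound to one, was counted 6880 and 7570 times in control and 4472 and 4018 times with TLX. Its level was 824 and 762 CPM in control and 517 and 507 CPM with TLX, so both TLX libraries lay well below both control libraries. The log2 fold change was -0.63 with an SE of 0.08, a level 1.55-fold higher in control. It ranged from -0.69 to -0.58 over 13 other settings of the analysis and was called in each.

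Plin3 (TIP47), a perilipin that moves between cytosol and nascent droplets, had 200 and 165 CPM in control and 190 and 176 CPM with TLX. The TLX libraries lay between the control libraries, and the log2 fold change was 0.0093 with an SE of 0.09. Plin2 was thus 4.72 and 5.30 times Plin3 per length in control and 3.11 and 3.29 times with TLX.

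Plin4 (S3-12), known from adipocytes and muscle, was counted 206 and 173 times in control and 250 and 256 times with TLX. That is 24.7 and 17.4 CPM in control against 28.9 and 32.3 CPM with TLX. The TLX libraries were the higher ones, but the control libraries differed from each other more than the nearest libraries of the 2 groups did. The log2 fold change was 0.55 with an SE of 0.14. It was 0.31 and not called without control replicate 2, and 0.81 without control replicate 1, and DESeq2's Wald test did not call it (0.55). An exon of Plin4 overlaps Hdgfrp2 on the opposite strand in the GRCm38 annotation. Hdgfrp2 was counted 737 and 793 times in control and 795 and 699 times with TLX. Whether counting used strand is not given, so reads of these genes in the shared stretch cannot be told apart. The length of that stretch was not measured.

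Plin5, the perilipin of oxidative tissues that tethers droplets to mitochondria, had 1 count in control replicate 2 and 0 in the other 3 libraries. Plin1, the adipocyte perilipin, had at most 2 counts a library. A 0 is compatible with up to 3 counts, or 0.302 to 0.379 CPM depending on the library (counting error only), so no difference was detectable for either at this depth.

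Together the perilipins summed to 534 and 483 RPKM in control and 367 and 356 RPKM with TLX. Plin2 made up 81.8% and 83.6% of that sum in control and 74.7% and 75.5% with TLX. The share of Plin3 was 17.4% and 15.8% in control and 24.0% and 22.9% with TLX, while its own level hardly moved. Plin4 was a small part of the sum in every library, at 0.804% and 0.626% in control and 1.37% and 1.58% with TLX.

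**Figure D2:**
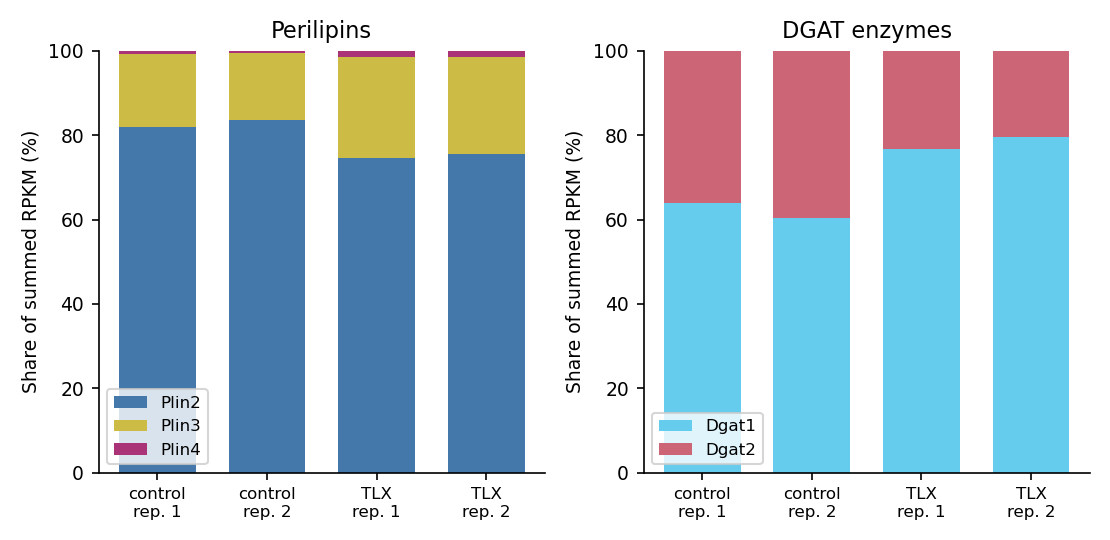
Share of the summed RPKM of the perilipins (left) and of the DGAT enzymes (right) in each library, in percent. Each bar is 1 library and Plin5, at most 0.0102%, is not drawn; the Plin2 share is 81.8% and 83.6% in control and 74.7% and 75.5% with TLX, and the Dgat2 share is 36.0% and 39.7% in control and 23.4% and 20.5% with TLX.

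The DGAT enzymes catalyse the same last step of triglyceride synthesis but are unrelated in sequence: DGAT1 sits in the endoplasmic reticulum, and DGAT2 can also act at the droplet surface on newly made fatty acids. Dgat2 was counted 130 and 145 times in control and 61 and 51 times with TLX, which is 15.6 and 14.6 CPM against 7.05 and 6.43 CPM. Both TLX libraries lay far below both control libraries. The log2 fold change was -1.15 with an SE of 0.16, a level 2.23-fold higher in control and the largest difference in the set. It stayed between -1.23 and -1.09 over 13 other settings and was called in each.

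Dgat1 had 21.6 and 17.3 CPM in control and 18.0 and 19.4 CPM with TLX, with overlapping groups and a log2 fold change of -0.05 (SE 0.13). The Dgat2 share of the pair, per length, was 36.0% and 39.7% in control and 23.4% and 20.5% with TLX. Summed, the pair stood at 19.2 and 16.4 RPKM in control and 13.4 and 13.9 RPKM with TLX.

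Of the 4 lipolysis genes, Pnpla2, Abhd5 and Lipe were tested and not called, and Mgll had too few counts to be tested. Pnpla2 (ATGL), which takes the first fatty acid off triglyceride, had 109 and 98.7 CPM in control and 101 and 96.9 CPM with TLX, and the groups overlapped (log2 fold change -0.07, SE 0.08). Abhd5 (CGI-58), which activates ATGL, had 54.5 and 47.3 CPM in control and 45.3 and 43.7 CPM with TLX. Both TLX libraries lay below both control libraries, with a log2 fold change of -0.19 (SE 0.10). Without control replicate 2 it was -0.29 and called. The ratio of Pnpla2 to Abhd5 per length was 2.32 and 2.42 in control and 2.58 and 2.57 with TLX.

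Lipe (hormone-sensitive lipase), which acts on diacylglycerol and cholesterol esters, was low, at 49 and 50 counts in control and 45 and 53 with TLX. Its log2 fold change was 0.13 (SE 0.21), and its exons overlap the antisense gene 4732471J01Rik, itself counted 45 and 67 times in control and 45 and 52 times with TLX. Mgll, whose enzyme cleaves the last fatty acid off monoglyceride, had 2 counts in TLX replicate 2 and 0 in the other libraries, under the floor of 3 counts. Of the summed RPKM of the 3 lipases Pnpla2 made up 94.4% to 95.9% in every library.

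**Figure D3:**
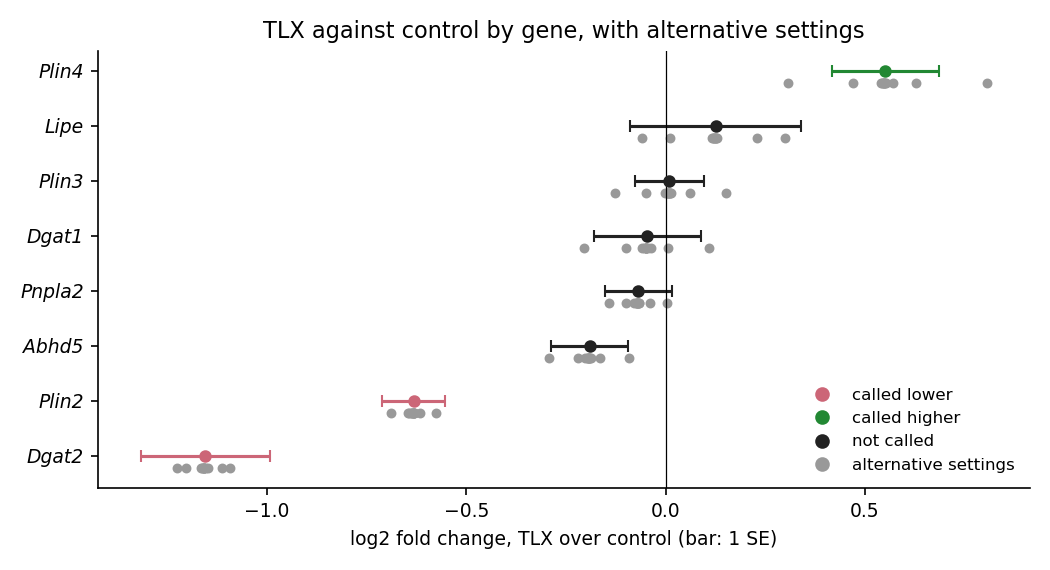
The log2 fold change of TLX over control for the 8 tested genes (large points, bars of 1 SE), with the value under each of up to 13 other settings in grey. Dgat2 at -1.15 and Plin2 at -0.63 keep their distance from 0 under each setting, Plin4 ranges from 0.31 to 0.81, and the grey points of Plin3, Dgat1, Pnpla2 and Lipe fall on both sides of 0.

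To place the set among other genes of fat storage, 9 lists of related genes were counted in the same fit. Together they have 181 rows, of which 118 were tested; 10 rose, 12 fell and 96 were not called. That is 18.6% called, against 16.8% of all tested genes, and the median log2 fold change was 0.0029. The share called lies near that of all tested genes. DESeq2's Wald test called 2 higher and 8 lower, and without TLX replicate 1 or 2 the calls were 4 higher and 8 lower, and 4 higher and 9 lower. Other settings that left the libraries unpaired gave 9 to 11 higher and 11 to 15 lower.

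Calls in each list stand beside the 9.04% of all tested genes called lower and the 7.79% called higher. The lists, like the set, were chosen with earlier results of these data known. Nothing is therefore read from the share of a list, and the values of its genes are a description of these libraries. Of 9 tested lipase regulators 0 rose and 3 fell, with a median of -0.12. Hilpda, a droplet protein that inhibits ATGL, fell from 59.6 ± 0.9 to 32.4 ± 1.5 CPM (SD, n = 2; -0.88 on the log2 scale, SE 0.09; edgeR adjusted p = 5.36e-07). Angptl4, an inhibitor of lipoprotein lipase, fell from 23.8 ± 1.0 to 7.1 ± 1.0 CPM (edgeR adjusted p = 1.93e-08). Pde3b, a phosphodiesterase that restrains lipolysis by breaking down cAMP, fell by 0.92 on the log2 scale from a low level (4.7 ± 1.1 CPM; edgeR adjusted p = 0.0229, and 0.256 and 0.170 without control replicate 2 and TLX replicate 2; 0.00499 to 0.256 over the settings). DESeq2's Wald test did not call Pde3b either (adjusted p = 0.252). G0s2, the other well-known ATGL inhibitor, had 1 count in each library.

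Of 16 tested genes of glycerolipid synthesis upstream of DGAT, 1 rose and 1 fell, with a median of -0.10. Agpat9 (GPAT3), which adds the first acyl group to glycerol phosphate, fell from 47.9 ± 1.6 to 24.7 ± 0.4 CPM (-0.96 on the log2 scale, SE 0.10; edgeR adjusted p = 4.45e-07). Gpam, the mitochondrial enzyme for the same step, had -0.33 and was not called (edgeR adjusted p = 0.0508). It did pass under 6 of 13 other settings (0.0182 to 0.329). Agpat6 (GPAT4), also an enzyme of that step, hardly differed, at 140.1 ± 2.1 CPM in control and 139.6 ± 4.0 CPM with TLX. Its log2 fold change was -0.0047 and it was not called. Per length Agpat6 stood above Agpat9 and Gpam in control (35.5 RPKM, against 16.7 and 7.22 RPKM). Gpd1l, related to glycerol phosphate dehydrogenase, rose by 0.29 (edgeR adjusted p = 0.0294), but did not pass in DESeq2 or without control replicate 1, TLX replicate 1 or TLX replicate 2 (0.00272 to 0.368 over the settings). Lpin1, a phosphatidate phosphatase that makes the diacylglycerol DGAT uses, had 0.04, and the monoacylglycerol acyltransferase genes Mogat1 and Mogat2 had 0 to 1 and 3 to 10 counts a library.

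Among 8 tested sterol ester genes 2 rose and 1 fell, with a median of -0.09. Soat2 (ACAT2), which makes cholesterol esters, the other neutral lipid of droplets, fell from 33.5 ± 1.5 to 14.5 ± 2.5 CPM (-1.22 on the log2 scale, SE 0.13; edgeR adjusted p = 4.27e-07). Soat1, whose enzyme shares that step, had 94.8 and 109 CPM in control and 90.3 and 87.7 CPM with TLX. Its groups did not overlap, but it was not called (-0.20 on the log2 scale, SE 0.09; edgeR adjusted p = 0.128). Per length Soat1 stood above Soat2 in control (21.3 against 15.8 RPKM). Abca1, the cholesterol exporter, rose by 0.62 (edgeR adjusted p = 0.00467; 0.0922 in DESeq2, 0.000238 to 0.0922 over the settings). Lipa, lysosomal acid lipase, rose by 0.44 (edgeR adjusted p = 0.0079; 0.104 in DESeq2 and 0.0653 when TLX replicate 2 was dropped, 0.000567 to 0.104 over the settings) and was the only one of 12 tested other lipases to be called, where the median was -0.02.

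Of 16 tested genes of other droplet proteins 1 rose and 1 fell, with a median of 0.10. Mettl7a1, a droplet-associated methyltransferase-like protein, rose from 8.9 ± 1.3 to 14.8 ± 1.2 CPM (edgeR adjusted p = 0.00306; 0.0559 in DESeq2, 3.05e-05 to 0.0559 over the settings). Fitm2 (FIT2), needed for droplet budding, fell by 0.33 (edgeR adjusted p = 0.0466) but did not pass in DESeq2, in the fit of all feature rows or with 3 libraries in place of 4 (0.0148 to 0.310 over the settings). Bscl2 (seipin) had 13 and 28 counts in control and 25 and 24 with TLX and was not called, and Cidec, a droplet fusion protein of adipocytes, had 1 to 4 counts a library.

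**Figure D4:**
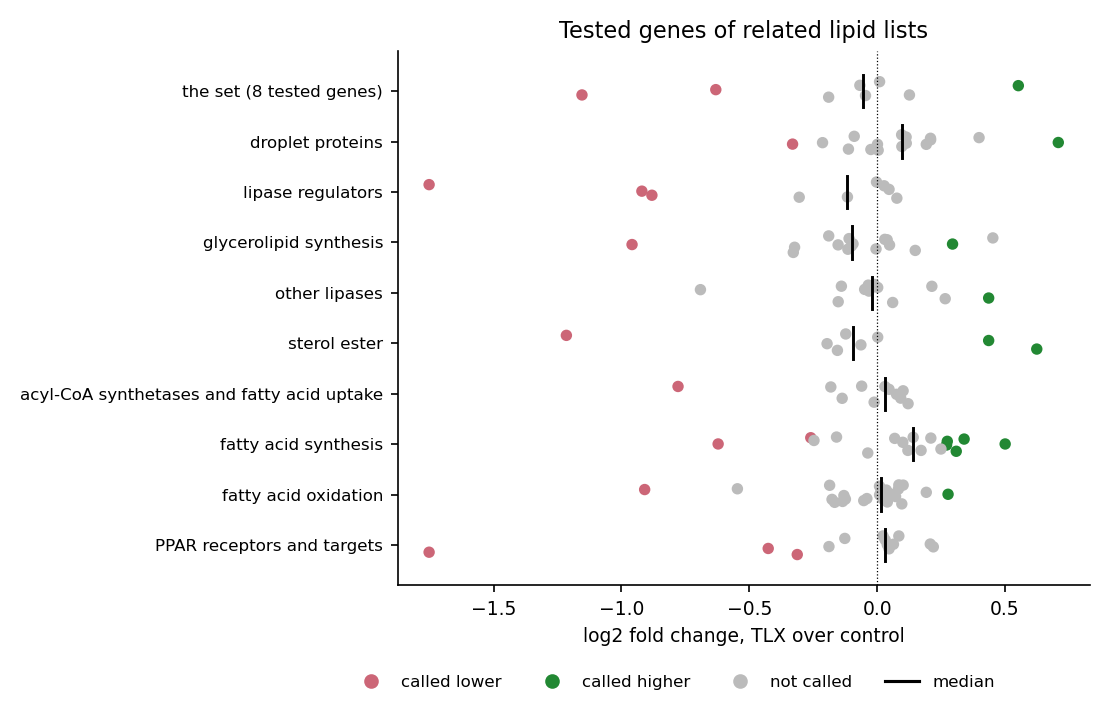
The log2 fold change of TLX over control for each tested gene of the set (top row) and of 9 related lists, 1 point a gene, with calls in colour and the median of each list as a black line; a gene in 2 lists appears in both. Dgat2 in the set, Angptl4 among lipase regulators and PPAR targets and Soat2 among sterol ester genes lie farthest to the left, and the medians of the lists lie between -0.12 and 0.14.

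Lists of fatty acid synthesis, oxidation and uptake were counted in the same way. Of 17 tested genes of fatty acid synthesis and desaturation 5 rose and 2 fell, with a median of 0.14. Fasn, fatty acid synthase, rose from 487 ± 33 to 616 ± 21 CPM (edgeR adjusted p = 0.00421; 1.17e-07 to 0.112 over the settings, with the highest when TLX replicate 1 was dropped), and the desaturase gene Fads2 rose by 0.50 (edgeR adjusted p = 0.00149), with 0.32 without control replicate 2. Me1, malic enzyme, which supplies NADPH, rose by 0.31 (edgeR adjusted p = 0.014), and did not pass in DESeq2 or without either TLX replicate (0.000454 to 0.191 over the settings). Fads3, of the same family as Fads2, fell from 145.5 ± 2.8 to 94.6 ± 5.2 CPM (edgeR adjusted p = 7.56e-06).

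Of 25 tested genes of fatty acid oxidation 1 rose and 1 fell, with a median of 0.01. Acot2, a mitochondrial acyl-CoA thioesterase, fell from 115.2 ± 3.2 to 61.4 ± 0.8 CPM (edgeR adjusted p = 5.12e-08). Etfa, of the electron transfer flavoprotein, rose by 0.28 (edgeR adjusted p = 0.0416), and did not pass under 5 of 13 other settings (0.00244 to 0.297), among them leaving out control replicate 2, where it was 0.17. Of 11 tested genes of acyl-CoA synthesis and fatty acid uptake 1 fell, the acyl-CoA synthetase gene Acsbg1 (log2 fold change -0.78, SE 0.09; edgeR adjusted p = 3.2e-06), and 0 rose, with a median of 0.03.

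Perilipin 2 is a textbook target of PPAR receptors, so their genes and other targets were counted too: of 13 tested 0 rose and 3 fell, with a median of 0.03. Ppara had 0 counts in every library and Pparg at most 1. Ppard, the one abundant PPAR gene, had 77.7 ± 5.5 CPM in control and 68.0 ± 6.2 CPM with TLX and was not called (edgeR adjusted p = 0.166; 0.0403 to 0.733 over the settings, with the lowest when control replicate 2 was dropped). Besides Angptl4, the falls were Vldlr, a lipoprotein receptor (-0.43; edgeR adjusted p = 0.00306; 3.01e-05 to 0.0646 over the settings, with the highest when TLX replicate 1 was dropped), and the receptor gene Rxrb (-0.31; edgeR adjusted p = 0.0144), which did not pass in DESeq2 or without control replicate 1 or either TLX replicate (0.000203 to 0.163).

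Genes whose centred log2 CPM (with 1 CPM added) over the 4 libraries lay nearest to Dgat2, among 8555 other genes averaging at least 10 CPM, were Trib3, Pla2g2e and 9330188P03Rik, at distances of 0.061, 0.062 and 0.11. Nearest to Plin2 were Tnfrsf12a, Fam83f and Got1, at 0.022, 0.027 and 0.042. Trib3, a stress-induced pseudokinase gene, had 406 and 391 CPM in control and 201 and 193 CPM with TLX. Got1, the cytosolic aspartate aminotransferase gene, had 208 and 187 CPM in control and 127 and 128 CPM with TLX. These likenesses rest on 4 libraries and mostly on the difference between the groups. The added 1 CPM shrinks differences at low levels such as that of Dgat2, so the order of distances depends partly on it. In the edgeR fit 9330188P03Rik had a log2 fold change of -1.16 and Trib3 -1.02, against -1.15 for Dgat2.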

How the data were processed

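RNA-seq was run on 4 libraries, 2 a group, mapped to groups by their labels. Per the file headers, the authors deposited raw read counts per feature and library, with a column of feature lengths. TopHat2 2.0.13 and mm9 were used, per the submitters' processing notes; the sources used here do not give the counting program, its annotation or its use of strand. Of 56826 rows, 33353 are cDNA clone rows, left out of library sizes and tests because some repeat counts of genes. They took 23.3% to 25.1% of the counts. Library totals are 10865462 to 13066536 counts, and gene row totals 8136185 to 9788646. All 10 genes had a row, and no clone row had the same counts as any of the 8 tested.

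After filterByExpr (minimum count 10) and TMM scaling, edgeR 4.0.16 (glmQLFit, glmQLFTest; R 4.3.3) compared TLX with control on 2 residual degrees of freedom. P-values were adjusted by Benjamini-Hochberg over 11024 gene rows, with calls at 0.05. CPM use TMM-scaled library sizes, and RPKM are CPM per kilobase. The SE is the log2 fold change divided by the square root of F. Intervals and floors cover counting error only. The alternatives were limma 3.58.1 (voom), DESeq2 1.42.0 (size factors; Wald test), other filters and scalings, the replicate number as a block, all feature rows, no Rn45s and Lars2, and each library left out. Simulated data were drawn for the 11024 genes from their mean levels at the depth of these libraries, with 50 genes for each size of change. Every simulated gene was given the same dispersion. The edgeR fit recovered 12 at 1.25-fold (49 tested), 36 at 1.5-fold, 46 at 2-fold and 50 at 4-fold. It called 1 gene among the 10824 left unchanged, of which 10746 were tested. Real genes differ in dispersion, so these rates do not cover genes that vary more between libraries. The median chi-square between replicates was 1.13 for control and 0.924 for TLX, against 0.455 for sampling noise, so no library was taken for a repeat of another.

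The set and the lists were chosen with earlier results of these data known. Named are all genes of the set, Nr2e1 and up to 4 called genes of smallest p from each list. Genes that act with the set directly, markers and the 3 nearest genes of Dgat2 and Plin2 are named too. Hdgfrp2 and 4732471J01Rik were named because they overlap the set, and Agpat6 and Soat1 because they share an enzymatic step with Agpat9 and Soat2. Of 184 related symbols, 181 have a row. Promoters are RefSeq's on GRCm38.p6, which is not the build of the counts, and only their sequence was used.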

Additional observations from a re-analysis of the deposited data

How the results depend on the processing

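Dgat2 and Plin2 were called lower under all 13 alternatives, and of 103 values for the 8 tested genes of the set 93 kept their direction and side of the threshold. Plin4 was called in 11 of 13. The count of higher calls in the set was 0 with DESeq2's Wald test and 0 to 1 with a library left out. Among all genes DESeq2's Wald test called 345 higher and 480 lower, against 859 and 997, and with a library left out 388 to 993 and 585 to 1060 were called. Among related genes it called 2 higher, and with a library left out 4 to 11 were called higher and 8 to 15 lower. Values near 0 changed sign: Plin3 was -0.0025 when genes averaging under 10 CPM were left out and -0.13 to 0.15 with a library left out. In the same runs Dgat1 ranged from -0.21 to 0.11, Pnpla2 from -0.14 to 0.0027, Lipe from -0.058 to 0.30 and Lpin1 from -0.0027 to 0.075. The causes were not tested, though leaving out a library leaves 1 residual degree of freedom. With the replicate number as a block, 1495 genes were called higher and 1487 lower, and 16 and 22 of the related genes, while the set kept 1 and 2. The libraries share only a number: the labels name no shared culture, and same-numbered deviations correlated at 0.11 over genes. Scaling moved the median of all genes by under 0.01 on the log2 scale. Depth limits Plin5 and Mgll, which had at most 2 counts a library, and Lipe, at 45 to 53.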
